A study of Mus musculus with 9 samples.

Results

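Nell1, Enpp2, Gcnt2, Pam and Ffar4 are 5 of the 38197 gene symbols measured, and they were chosen by their expression in these same libraries, as genes whose RNA rose from 4.5DDC through 5.5DDC to 6.5DDC. Their rises are therefore given as a description with no test, and nothing is supported by them. DDC stands for days in differentiation conditions. The libraries came from mouse embryonic stem cells of strain 129 with a wild type genotype, grown as a monolayer and turned into neural stem cells of the ventral hindbrain. By the sample labels, retinoic acid (RA) and SAG, which switches on Sonic hedgehog signalling through Smo, were present from 0 to 3 DDC. The authors' methods place the change to medium without them later, though before 4.5DDC. Every library had thus received both, and none of the 3 times has an untreated control here. Cells that carry Prominin-1 on their surface were then sorted with magnetic beads, 3 replicates at each time and 9 libraries in all, and poly(A) RNA was sequenced. One label field gives the ages as 4, 5 and 6 days and another as 4.5, 5.5 and 6.5, and the second is used. The labels do not say that replicates came from separate cultures, so p-values measure only the spread between these libraries.

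The count table summed to between 11066568 and 25506193 reads per library. Levels are the deposited FPKM, read density scaled for transcript length and library size, which can be compared between genes. Changes are log2 fold changes of the counts, fitted by edgeR over all 9 libraries and 14742 genes that passed a filter on low counts. All 5 genes passed that filter. Replicate 1 stood apart from replicates 2 and 3 at every time. On the second principal component of log2 CPM (CPM being counts relative to library size), which held 27.2% of the variance, replicate 1 lay between 23.9 and 54.5 and the other 6 libraries between −44.6 and −3.12.

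The products of these genes bear on what a cell secretes or carries at its surface, in different ways. Nell1 encodes a secreted glycoprotein with thrombospondin-like and EGF-like domains, known from bone formation, and its relative Nell2 is a guidance cue that binds the receptor Robo3 on growing axons. Enpp2 encodes autotaxin, a secreted enzyme that makes the signalling lipid lysophosphatidic acid, which cells sense through the Lpar receptors and destroy with surface phosphatases. Gcnt2 encodes the enzyme that branches poly-N-acetyllactosamine chains into the I blood group antigen. Pam encodes the enzyme that amidates the C-terminus of peptide hormones inside secretory granules. Ffar4 encodes a surface receptor for long-chain fatty acids that couples to G proteins and arrestins. The Gcnt2 enzyme works in the Golgi, where it modifies glycans bound for the surface, so a grouping as secreted and surface proteins describes its product and not the enzyme. The reads measured RNA, and no protein, lipid or glycan was measured.

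The secreted glycoprotein gene Nell1 had 1.002, 1.32 and 1.13 FPKM in replicates 1, 2 and 3 at 4.5DDC, 4.07, 3.58 and 3.86 FPKM at 5.5DDC, and 13.0, 9.84 and 10.2 FPKM at 6.5DDC. Every library of a later time was above every library of an earlier one, and replicate 1 was the highest at 5.5DDC and 6.5DDC. The mean went from 1.15 ± 0.163 FPKM (SD, n = 3) to 11.01 ± 1.72 FPKM, a log2 fold change of 3.36 (standard error 0.20). Its log2 steps were even, with 1.76 over the first day and 1.60 over the second. Nell1 lies on the plus strand of chromosome 7 from 49974864 to 50866608 (GRCm38, GENCODE M21), and its exons cover 0.815% of that span. No exon of another gene overlaps them in that annotation.

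The region around the annotated start of Nell1, chr7:49975100-49975399 on the plus strand, is printed from RefSeq on GRCm38.p6. It runs from 250 bases before the RefSeq start to 50 after it, with the E-box CAGCTG, a motif of basic helix-loop-helix factors, in capitals. The RefSeq start differs from the GENCODE start, and the whole window lies inside the gene span given above.
Nell1: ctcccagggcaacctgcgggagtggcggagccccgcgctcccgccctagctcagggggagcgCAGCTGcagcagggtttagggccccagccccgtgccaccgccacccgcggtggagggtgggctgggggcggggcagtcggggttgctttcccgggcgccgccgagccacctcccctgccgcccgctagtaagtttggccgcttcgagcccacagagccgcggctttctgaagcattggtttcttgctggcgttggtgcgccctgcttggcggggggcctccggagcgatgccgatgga
The E-box begins 188 bases before the start, and 16.3% of the 32851 windows of this length hold that motif. The window has 28 CpG dinucleotides, at the 87.1 percentile of all windows.

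The autotaxin gene Enpp2 was the most abundant of the 5 at each time. It had 44.4, 30.9 and 44.1 FPKM at 4.5DDC in replicates 1, 2 and 3, 144.5, 126.6 and 125.5 FPKM at 5.5DDC, and 223.7, 273.1 and 218.9 FPKM at 6.5DDC. No 2 times overlapped, and replicate 2 was the lowest library at 4.5DDC and the highest at 6.5DDC. The mean went from 39.8 ± 7.74 FPKM (SD, n = 3) through 132 ± 10.7 FPKM to 239 ± 30.0 FPKM. Its percentile among the genes tested was 80.1 at 4.5DDC and 95.5 at 5.5DDC, and by 6.5DDC it ranked 299 of 14742. The log2 fold change over the whole span was 2.58 (standard error 0.19), of which 65.6% came in the first day, with steps of 1.69 and 0.89. Within replicate 2 the rise was 3.19, against 2.39 within replicate 1 and 2.19 within replicate 3. Enpp2 lies on the minus strand of chromosome 15 from 54838901 to 54952892, and 345 of its 5779 exonic bases overlap Gm26684 on the opposite strand. The sources used here do not give whether reads were counted by strand, so reads of such overlaps cannot be told apart.

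The glycan-branching enzyme gene Gcnt2 had 4.16, 4.17 and 5.00 FPKM in replicates 1, 2 and 3 at 4.5DDC, 9.91, 13.8 and 13.2 FPKM at 5.5DDC, and 23.8, 24.2 and 22.9 FPKM at 6.5DDC. No 2 times overlapped, and the 3 libraries of 6.5DDC were close together while replicate 1 was low at 5.5DDC. The mean went from 4.44 ± 0.482 FPKM (SD, n = 3) to 23.6 ± 0.698 FPKM, a log2 fold change of 2.39 (standard error 0.17). The first day gave 1.42 and the second 0.97. Gcnt2 lies on the plus strand of chromosome 13 from 40859754 to 40960892, and 777 of its 7051 exonic bases, the largest share of the 5 genes, overlap A730081D07Rik and Gm31683 on the opposite strand. RefSeq gives 3 starts for it, and counts per gene do not show which of them the rising RNA used.

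The region of the first of these starts, chr13:40859518-40859817 on the plus strand, is shown because it alone of the 3 holds matches to the motifs searched. Capitals mark the binding motif of nuclear factor I (NFI), TTGGCA, and the E-box CAGCTG.
Gcnt2: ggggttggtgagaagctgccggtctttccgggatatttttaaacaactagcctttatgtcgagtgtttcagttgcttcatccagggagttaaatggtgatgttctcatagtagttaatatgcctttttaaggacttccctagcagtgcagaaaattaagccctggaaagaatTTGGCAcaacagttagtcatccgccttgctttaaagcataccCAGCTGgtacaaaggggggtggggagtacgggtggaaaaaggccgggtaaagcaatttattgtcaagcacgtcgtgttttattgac
The NFI motif begins 78 bases before the start and the E-box 36 bases before it. Of all windows, 14.1% hold the NFI motif on either strand.

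The peptide-amidating enzyme gene Pam had 38.8, 30.8 and 41.9 FPKM in replicates 1, 2 and 3 at 4.5DDC, 48.8, 63.1 and 75.6 FPKM at 5.5DDC, and 119.0, 154.0 and 144.6 FPKM at 6.5DDC. No 2 times overlapped, and replicate 1 was the lowest library at 5.5DDC and 6.5DDC. The mean went from 37.2 ± 5.73 FPKM (SD, n = 3) to 139 ± 18.1 FPKM, the smallest log2 fold change of the 5 at 1.78 (standard error 0.17). More of it came late, with 0.68 over the first day and 1.10 over the second. Pam lies on the minus strand of chromosome 1 from 97795114 to 98095646, and 188 of its 11892 exonic bases are shared with B230216N24Rik on the same strand. Its RefSeq starts give 2 windows that overlap almost wholly, and the one that holds a match, chr1:98095597-98095896 on the minus strand, is shown with the E-box in capitals.
Pam: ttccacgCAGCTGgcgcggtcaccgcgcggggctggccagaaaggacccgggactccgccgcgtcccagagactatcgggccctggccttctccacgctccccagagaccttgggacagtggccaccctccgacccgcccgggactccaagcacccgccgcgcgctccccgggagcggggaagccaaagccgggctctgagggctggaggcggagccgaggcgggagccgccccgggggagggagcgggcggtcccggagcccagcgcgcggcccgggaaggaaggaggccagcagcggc
This E-box begins 243 bases before the start. The window is rich in CpG dinucleotides, with 35, at the 93.8 percentile of all windows.

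The fatty acid receptor gene Ffar4 was the least abundant of the 5. It had 0.317, 0.395 and 0.436 FPKM in replicates 1, 2 and 3 at 4.5DDC, 0.471, 0.769 and 0.691 FPKM at 5.5DDC, and 2.40, 2.63 and 3.18 FPKM at 6.5DDC. The 3 times were close to one another at the first step and far apart at the second, without overlap at either. These levels rested on 9, 7 and 10 reads at 4.5DDC, 19, 14 and 12 at 5.5DDC, and 48, 69 and 80 at 6.5DDC. The log2 fold change was 2.81 (standard error 0.34), and 24.1% of it came in the first day, with steps of 0.68 and 2.14. A steady rise thus describes Ffar4 less well than Nell1, although the difference between the steps was not tested. Ffar4 lies on the plus strand of chromosome 19 from 38097071 to 38114263, with no exonic overlap with another gene in the annotation. The region around its start, chr19:38096829-38097128 on the plus strand, is shown with the NFI motif in capitals.
Ffar4: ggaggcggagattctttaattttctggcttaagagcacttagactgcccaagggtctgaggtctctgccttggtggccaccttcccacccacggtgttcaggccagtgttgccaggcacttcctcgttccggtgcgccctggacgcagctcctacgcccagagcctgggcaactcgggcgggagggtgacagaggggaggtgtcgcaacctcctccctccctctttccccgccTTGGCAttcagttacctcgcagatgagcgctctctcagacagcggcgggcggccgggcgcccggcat
The NFI motif begins 17 bases before the start. With Nell1, Gcnt2 and Pam, 4 of the 5 genes had a window in the RefSeq table. Beside the E-box and the NFI motif, 3 other motifs were searched on both strands and found in no window of these genes. They were TGGGTGGTC, bound by Gli factors and present in 0.253% of all windows, GTCTAGAC, bound by Smad factors and present in 0.213%, and TATAAA, present in 13.6%. A match describes these letters and not a bound site.

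**Figure D1:**
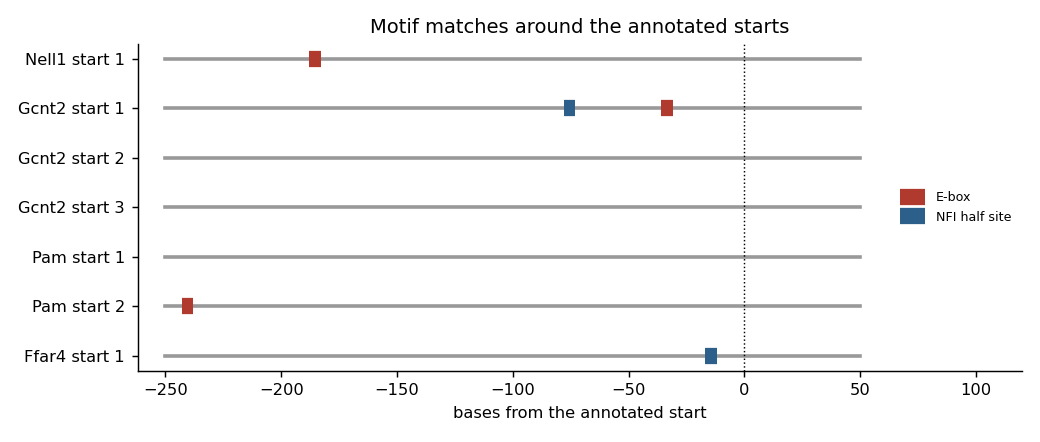
Matches to the E-box (red) and the NFI motif (blue) along the 7 windows of 4 genes, by distance in bases from the annotated start (dotted line). The matches lie at different distances, from 243 bases before the start in Pam to 17 bases before it in Ffar4.

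**Figure D2:**
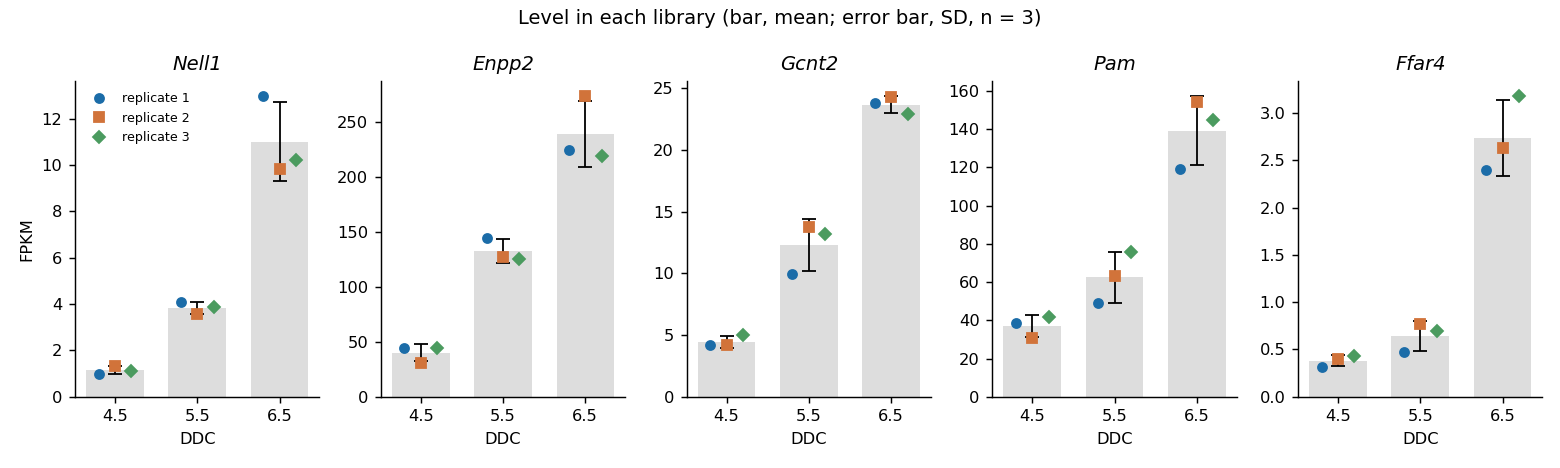
FPKM of each gene in each of the 9 libraries by time in DDC, with the mean (bar), the SD (error bar, n = 3) and the replicate number (marker). In each panel every library of a later time lies above every library of an earlier one. Nell1 goes from 1.002 to 13.0 FPKM and Enpp2 from 30.9 to 273.1 FPKM. The genes were chosen for their rises in these libraries, and the share of all tested genes that separate so was not counted. Nothing is read from this separation.

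By level, the order was Enpp2, Pam, Gcnt2, Nell1 and Ffar4 at each time. At 4.5DDC the ranges of Enpp2 and Pam overlapped, from 30.9 to 44.4 FPKM and from 30.8 to 41.9 FPKM. Within each of the 3 libraries Enpp2 was the higher, though in replicate 2 only by 30.87 against 30.78 FPKM. This difference was not tested. All other neighbours in this order had separate ranges at each time. The gap between Gcnt2 and Nell1 narrowed, from a ratio of mean FPKM of 3.86 at 4.5DDC through 3.20 to 2.15 at 6.5DDC.

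Several choices of measure would have ranked these genes differently. Among the 11998 tested genes that reached 2 FPKM on average at 6.5DDC, the size of the fold change placed Nell1 at rank 32, Ffar4 at 60, Enpp2 at 88, Gcnt2 at 115 and Pam at 272. They were thus not the 5 largest rises by fold. By the fold change divided by its standard error, over all 14742 genes tested, the ranks were 2 for Nell1, 4 for Gcnt2, 5 for Enpp2, 13 for Pam and 48 for Ffar4. These ranks come from the same libraries in which the genes were chosen, so nothing is read from them. All 5 were higher at each later time within each replicate number, as were 8.59% of the genes tested. This count follows from the choice of the genes, and nothing is read from it.

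**Figure D3:**
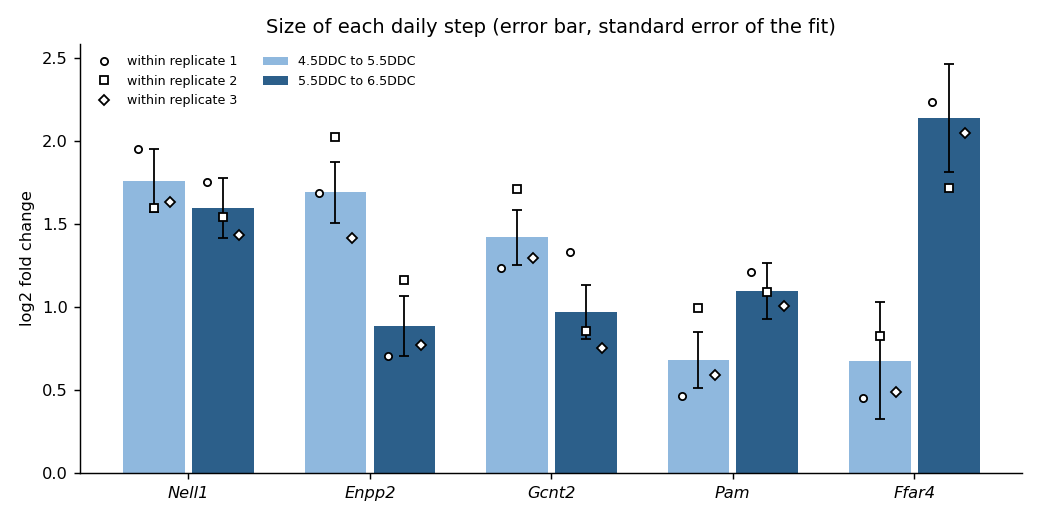
Log2 fold change of each gene over the first day (light) and the second (dark) from the edgeR fit with its standard error, with the difference of log2 CPM within each replicate number (open markers). Nell1 has steps of 1.76 and 1.60, and Ffar4 has 0.68 and 2.14.

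The replicate number offers a comparison that the time of collection does not enter, because each number occurs once at each time. It asks whether a gene differed between replicates after the times were allowed for. Over all genes 5.41% differed, which is 798 genes in edgeR's F test of the replicate number. Of the 5 genes, 0 differed by edgeR or by DESeq2, and 0 had an unadjusted p under 0.05 by either. The largest difference between replicate numbers was 0.44 on the log2 scale for Ffar4 (adjusted p = 0.962 from edgeR). For Pam it was 0.33 (adjusted p = 0.621 from edgeR), and for Gcnt2, Nell1 and Enpp2 it was 0.19, 0.15 and 0.13. These sizes depended on single libraries. Leaving out 1 library at a time gave 0.06 to 0.34 for Gcnt2, 0.01 to 0.29 for Nell1 and 0.09 to 0.37 for Enpp2, and none of the 5 genes passed under any of 17 alternatives. The spread between libraries also enters the standard error, by which these genes rank high, so this count is not fully independent of how they came to be chosen. A count of 0 of 5 is also not apart from the 5.41% over all genes, so nothing is read from it. Without the 3 libraries of replicate 1, an alternative chosen after seeing the data, the log2 fold changes were 3.14 for Nell1, 2.67 for Enpp2, 2.30 for Gcnt2, 1.82 for Pam and 2.73 for Ffar4.

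Genes known to work with each of the 5 were followed from 4.5DDC to 6.5DDC. Over all tested genes 9.21% rose and 9.53% fell, and the median was 0.00. Of 18 listed genes for autotaxin relatives and lysophosphatidic acid found in the table, 15 were tested. Of these 3 rose, which is 20.0%, with a list median of −0.19, and all 3 were relatives of Enpp2. Another relative, Enpp3, did not rise, with 6.49 ± 1.44 FPKM at 4.5DDC and 4.75 ± 1.57 FPKM at 6.5DDC (SD, n = 3) and a log2 fold change of −0.48 (edgeR adjusted p = 0.209), and Enpp6 was too low to test. Both were picked after their values were seen. Enpp5 went from 3.94 ± 0.901 to 15.3 ± 0.722 FPKM (SD, n = 3), with a log2 fold change of 1.92 (standard error 0.19, edgeR adjusted p = 0.000844). It was higher at 6.5DDC in each replicate number, with 4.98, 3.37 and 3.48 FPKM against 14.8, 16.1 and 15.0 FPKM. Enpp4 rose by 1.27 (standard error 0.19, edgeR adjusted p = 0.00331) and Enpp1 by 2.71 (standard error 0.68, edgeR adjusted p = 0.0236). Enpp1 also differed with the replicate number, by up to 1.70 on the log2 scale (edgeR adjusted p = 0.0402), and its rise was lost under 8 of 20 alternatives, with adjusted p up to 0.0844 without replicate 2 of 4.5DDC. Enpp4 and Enpp5 were called under all 20. Enpp1 acts on nucleotides, and Enpp2 is the member of the family that makes lysophosphatidic acid.

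The receptors for lysophosphatidic acid did not pass the test in the model of time alone. With the replicate number added to the model (a replicate block), 1 of the 15 tested genes of the list fell. Lpar6 had the highest level of them, with 34.7 ± 1.96 FPKM (SD, n = 3) at 4.5DDC and 27.9 ± 4.36 FPKM at 6.5DDC, a log2 fold change of −0.33 (edgeR adjusted p = 0.143). Lpar1 went from 3.94 ± 1.57 to 1.73 ± 0.685 FPKM, a log2 fold change of −0.76 (edgeR adjusted p = 0.147). Lpar5 had no reads in any library. The phosphatase gene Ppap2b was at 20.9 ± 2.89 FPKM and 22.4 ± 3.26 FPKM (SD, n = 3). Averaged over the 3 times the most abundant gene of the list was Agpat1, of lipid synthesis, although Lpar6 was above it at 4.5DDC and 6.5DDC. Agpat1 had 32.0 ± 10.98 FPKM at 4.5DDC and 23.7 ± 8.41 FPKM at 6.5DDC. All of these were far below the 239 FPKM of Enpp2 at 6.5DDC, and Lpar6, Lpar1 and Ppap2b were picked after their values were seen.

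Of 11 genes for partners of NELL proteins and Robo receptors, 10 were tested and 5 rose, with a list median of 0.73. Robo3, the receptor gene that marks neurons whose axons cross the midline, rose most, by 6.06 (standard error 1.501, edgeR adjusted p = 0.0228). It had 0.0186, 0.158 and 0.103 FPKM in replicates 1, 2 and 3 at 4.5DDC, and 0.255, 5.58 and 16.2 FPKM at 6.5DDC. Replicate 1 was the lowest at both times, and Robo3 differed with the replicate number by up to 4.97 (edgeR adjusted p = 0.00371). The call was lost under 8 of 20 alternatives, with adjusted p up to 0.204 under limma voom. Slit2, a Robo ligand gene and the most abundant of the list, rose by 1.09 (standard error 0.26, edgeR adjusted p = 0.0207), from 300 ± 87.0 to 649 ± 133 FPKM (SD, n = 3). Atraid, whose product binds NELL1, rose by 0.86 (standard error 0.17, edgeR adjusted p = 0.00834) and was called under all 20 alternatives. It was higher at 6.5DDC in each replicate number, with 88.4, 59.9 and 64.5 FPKM against 114.7, 96.3 and 108.7 FPKM. Of its 2082 exonic bases 396 overlap Slc5a6 on the opposite strand, and of the 6281 of Cntnap4 503 overlap Gm45904. The adhesion genes Itgb1 and Cntnap4 rose by 0.63 (standard error 0.19, edgeR adjusted p = 0.0419) and 3.52 (standard error 0.98, edgeR adjusted p = 0.0353), the second with at most 46 reads in a library. Both calls depended on single libraries, with adjusted p up to 0.149 and 0.112 without replicate 2 of 4.5DDC, and Slit2 had 0.0755 there. The list had 1 call left without replicate 2 of 4.5DDC, replicate 3 of 4.5DDC or replicate 2 of 6.5DDC, and 2 without replicate 1 of 4.5DDC. Without replicate 1 of all times 6 rose and 1 fell.

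Nell2, the relative of Nell1, was at 31.6 ± 10.2 FPKM at 4.5DDC and 54.5 ± 33.1 FPKM at 6.5DDC (SD, n = 3), a log2 fold change of 0.72 that did not pass the test (edgeR adjusted p = 0.354). It differed with the replicate number, as did Robo1 and Robo2, by 1.42, 1.498 and 1.46 on the log2 scale (edgeR adjusted p = 0.0135, 0.00502 and 0.00715). For Nell1 the same measure was 0.15. Whether Nell1 and Nell2 differ in this was not tested, and Nell2, Robo1 and Robo2 were picked after their values were seen.

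Of 23 genes for building poly-N-acetyllactosamine chains, 18 were tested and 2 rose, 11.1%, with a list median of −0.09. Gcnt4, another branching enzyme gene of the same family, rose by 1.03 (standard error 0.25, edgeR adjusted p = 0.0203), from 2.17 ± 0.363 to 4.46 ± 1.22 FPKM (SD, n = 3), and 535 of its 5087 exonic bases overlap Gm48597 on the opposite strand. St3gal6, a sialyltransferase gene, the most abundant of the list at 6.5DDC but not at 4.5DDC, rose by 1.75 (standard error 0.53, edgeR adjusted p = 0.0454). Its FPKM were 30.8, 7.49 and 12.9 at 4.5DDC and 78.9, 55.8 and 34.1 at 6.5DDC, with replicate 1 the highest at each, and 1603 of its 6172 exonic bases overlap Dcbld2 on the opposite strand. The adjusted p of Gcnt4 reached 0.083 and that of St3gal6 0.137 without replicate 2 of 4.5DDC, and without replicate 3 of 4.5DDC or replicate 2 of 6.5DDC neither passed. B3gnt5 did not pass the test, with 35.5 ± 3.80 FPKM at 4.5DDC and 28.2 ± 7.37 FPKM at 6.5DDC. When replicate 1 of all times was left out, 2 genes of the list rose and 3 fell. B3gnt2, which extends the chain, had no reads in the count table, although its FPKM was 0.594 ± 1.01 at 4.5DDC, so its change was not measured. B3gnt5 and B3gnt2 were picked after their values were seen.

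Of 21 genes for peptide processing and secretory granules, 19 were tested and 4 rose, 21.1%, with a list median of 0.50. Chgb, a granule core protein gene, rose by 3.19 (standard error 0.39, edgeR adjusted p = 0.00151). It had 9.33, 9.28 and 8.60 FPKM in replicates 1, 2 and 3 at 4.5DDC and 50.3, 85.8 and 116.9 FPKM at 6.5DDC, with replicate 1 the lowest at the later time. Cpe, which trims peptides before Pam acts on them and was the most abundant of the list, rose by 1.02 (standard error 0.17, edgeR adjusted p = 0.0046), from 74.7 ± 5.03 to 153 ± 29.6 FPKM (SD, n = 3). Both were called under all 20 alternatives. Cpd, a carboxypeptidase gene related to Cpe, rose by 0.58 (standard error 0.16, edgeR adjusted p = 0.0347). Uhmk1, a kinase gene whose product binds the tail of PAM, rose by 0.50 (standard error 0.14, edgeR adjusted p = 0.0396). These calls were lost under 8 and 9 of 20 alternatives, with adjusted p up to 0.126 and 0.158 without replicate 2 of 6.5DDC, and the list had 2 calls without replicate 2 of 4.5DDC, 5.5DDC or 6.5DDC or replicate 3 of 5.5DDC. Without replicate 1 of all times 7 of 18 rose. The prohormone convertases Pcsk1 and Pcsk2 were at 0.517 ± 0.359 and 1.81 ± 0.912 FPKM (SD, n = 3) at 6.5DDC and did not pass the test, with log2 fold changes of 1.64 and 1.40 (edgeR adjusted p = 0.0586 and 0.0521). They were picked after their values were seen.

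Of 21 genes for precursors of peptides that Pam is known to amidate, 15 were under 1 FPKM in every library, and Vip, Avp, Nmu and Crh had no reads. Of the 5 tested, 0 were called by edgeR or DESeq2, and 0 had an unadjusted p under 0.05 by either. The most abundant was Calca, the precursor gene of calcitonin and CGRP, with 15.2 ± 1.05 FPKM at 4.5DDC and 12.2 ± 1.90 FPKM at 6.5DDC (SD, n = 3). Sct, the secretin gene, was at 6.91 ± 6.49 and 10.4 ± 3.55 FPKM, Adcyap1 at 2.77 ± 1.09 and 3.26 ± 2.15 FPKM, and Gal at 1.86 ± 0.465 and 2.63 ± 2.41 FPKM, and these 3 were picked after their values were seen. Pam itself was at 139 ± 18.1 FPKM at 6.5DDC.

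Of 16 genes for free fatty acid receptors and their signalling found in the table, 11 were tested, and 2 rose and 1 fell, 18.2% and 9.09%, with a list median of 0.00. The other receptors were absent or near absence. Ffar1 and Ffar3 had no reads in any library, which allows up to 3 reads, or 0.271 CPM in the smallest library, and Ffar2 had at most 4 reads. Ffar4 was thus the only one of the 4 to pass the filter on low counts. The G protein genes Gnaq and Gnai1 rose by 0.66 (standard error 0.17, edgeR adjusted p = 0.0252) and 0.65 (standard error 0.19, edgeR adjusted p = 0.0381). The phospholipase gene Plcb3 fell by 0.96 (standard error 0.27, edgeR adjusted p = 0.0346). These calls were lost without replicate 2 of 6.5DDC, with adjusted p of 0.102, 0.144 and 0.122, and none of them passed without replicate 1 or 2 of 4.5DDC. Without replicate 3 of 6.5DDC 0 genes of the list rose and 2 fell, and without replicate 1 of all times 2 rose and 0 fell. The most abundant gene was Gnai2, with 189 ± 33.3 FPKM at 4.5DDC and 136 ± 29.8 FPKM at 6.5DDC, a log2 fold change of −0.48 (edgeR adjusted p = 0.0942).

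**Figure D4:**
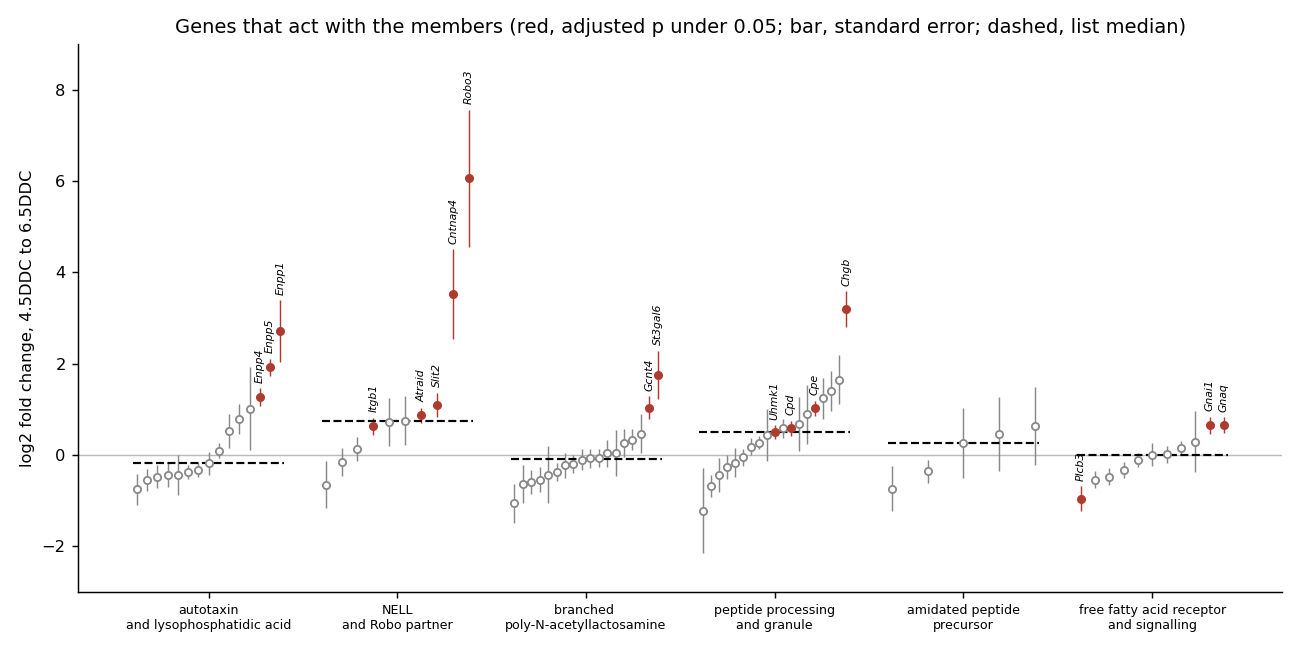
Log2 fold change, 6.5DDC against 4.5DDC, of each tested gene in the 6 lists, with its standard error, in red where the edgeR adjusted p was under 0.05, and the list median (dashed). Calls run from −0.96 for Plcb3 to 6.06 for Robo3, and list medians from −0.19 to 0.73.

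The sort and the cell type were checked by markers, since in bulk RNA fewer cells of a type and less RNA per cell cannot be told apart. Prom1, which encodes the sorted protein Prominin-1, was at 79.1 ± 14.3 FPKM at 4.5DDC and 183 ± 27.2 FPKM at 6.5DDC (SD, n = 3), and rose by 1.19 (standard error 0.18, edgeR adjusted p = 0.00363). Sox2 held at 82.1 ± 5.18 and 87.6 ± 7.37 FPKM and Nes at 157 ± 11.5 and 154 ± 14.0 FPKM. Of the 9 neural progenitor markers 1 rose and 1 fell, with Vim the most abundant, and the fall was in Sox3, by 1.80 (standard error 0.49, edgeR adjusted p = 0.033). That call was lost under 6 of 20 alternatives, with adjusted p up to 0.125 without replicate 2 of 4.5DDC. Msi1, Hes5 and Pax6 were also lower but did not pass, with log2 fold changes of −0.56, −2.10 and −1.85 (edgeR adjusted p = 0.074, 0.0522 and 0.0575), and DESeq2 called 4 of the 9 markers lower. The count of falls by edgeR was 3 without replicate 1 or replicate 3 of 4.5DDC, 2 without replicate 3 of 6.5DDC and 0 without replicate 2 of 4.5DDC or of 6.5DDC. Msi1, Hes5 and Pax6 were picked after their values were seen.

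Of 7 tested markers of the ventral hindbrain, 3 fell, Nkx2-9, Nkx6-1 and Nkx6-2, and without replicate 2 of 4.5DDC or replicate 2 of 6.5DDC only 1 did. Nkx2-9 fell by 4.59 (standard error 0.78, edgeR adjusted p = 0.00537), to 0.165 ± 0.132 FPKM (SD, n = 3) at 6.5DDC, and kept its call under all 20 alternatives. Nkx6-1 lost its call under 2 alternatives and Nkx6-2 under 13, with adjusted p up to 0.0833 and 0.193 without replicate 2 of 4.5DDC. Without replicate 1 of all times 4 of the 7 fell. The change of Nkx2-2 did not pass the test, and it was at 11.04 ± 3.16 FPKM at 4.5DDC and 12.9 ± 5.77 FPKM at 6.5DDC. Of the 7 tested markers 4 differed with the replicate number, among them Nkx2-2, by up to 0.93 on the log2 scale (edgeR adjusted p = 0.0435). Hoxb1 was under 1 FPKM in every library.

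Markers of other cell types moved with time too, and their part in the rises of the 5 genes was not tested. Radial glia and astrocyte markers summed to 246.6, 546.8 and 611.9 FPKM in replicates 1, 2 and 3 at 4.5DDC, 401.0, 773.5 and 781.2 FPKM at 5.5DDC, and 858.2, 1076 and 914.5 FPKM at 6.5DDC. Of the 7 tested, 5 rose, led by Nfia at 1.96 (standard error 0.23, edgeR adjusted p = 0.00151) and Slc1a3 at 1.74 (standard error 0.18, edgeR adjusted p = 0.00102). The count of rises was 2 without replicate 2 of 6.5DDC. It was 3 without replicate 1, 2 or 3 of 4.5DDC or replicate 2 of 5.5DDC. Fabp7 was the most abundant, and Gfap was under 1 FPKM in every library. Nfia and Slc1a3 were called under all 20 alternatives, while Aqp4, Glul and Tnc lost their calls under 10, 2 and 9, with adjusted p up to 0.131, 0.0546 and 0.125 without replicate 2 of 4.5DDC, replicate 1 of 4.5DDC and replicate 2 of 6.5DDC. The sum of this list was higher at each later time in replicates 1, 2 and 3, but most of it was Fabp7, which did not pass the test, with a log2 fold change of 1.08 (edgeR adjusted p = 0.126).

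Floor plate markers summed to 973.1, 600.9 and 602.8 FPKM at 4.5DDC in replicates 1, 2 and 3, 1810, 1186 and 1198 FPKM at 5.5DDC, and 1550, 1355 and 1499 FPKM at 6.5DDC. Of 8 tested, 5 rose, among them Spon1 by 1.54 (standard error 0.26, edgeR adjusted p = 0.00515) and Shh by 0.79 (standard error 0.22, edgeR adjusted p = 0.0321). The count of rises was 2 without replicate 2 or 3 of 4.5DDC or of 6.5DDC. The call of Shh was lost under 4 of 20 alternatives, with adjusted p up to 0.114 without replicate 2 of 6.5DDC. Of the 2847 exonic bases of Shh 807 overlap 9530036O11Rik and Gm26894 on the opposite strand. Foxa2, Lmx1b and Corin did not pass, with log2 fold changes of 0.18, 0.52 and 1.71 (edgeR adjusted p = 0.582, 0.353 and 0.178). They were picked after their values were seen. Corin differed with the replicate number, by up to 2.215 on the log2 scale (edgeR adjusted p = 0.00122). It was higher at 6.5DDC in each replicate number, with 66.4, 11.3 and 14.2 FPKM against 193.6, 40.7 and 54.5 FPKM. With a replicate block 6 of the 8 markers rose. Ntn1 was the most abundant at 4.5DDC and Spon1 at 6.5DDC. In replicate 1 the sum was lower at 6.5DDC than at 5.5DDC, and the markers of the list went both ways. Ferd3l went from 64.8 to 104.1 FPKM and Corin from 132.8 to 193.6 FPKM, while the other markers were lower.

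The sum of neuron markers was 108.4, 255.9 and 190.4 FPKM at 4.5DDC in replicates 1, 2 and 3, 89.2, 316.8 and 329.5 FPKM at 5.5DDC, and 187.9, 419.0 and 452.3 FPKM at 6.5DDC. Replicate 1 was the lowest at each time, and within it the sum was lower at 5.5DDC than at 4.5DDC. Of 7 tested markers, 5 differed with the replicate number, Dcx most, by up to 2.11 (edgeR adjusted p = 0.00149). With time 1 of them rose, Syt1, by 3.19 (standard error 0.36, edgeR adjusted p = 0.00133), from 2.23 ± 0.640 to 20.4 ± 3.64 FPKM (SD, n = 3). The most abundant was Stmn2, with 67.4 ± 37.7 and 160 ± 63.4 FPKM. RNA of neuron markers was thus present in cells sorted for Prominin-1.

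Mesenchyme markers summed to 12.6, 25.0 and 32.9 FPKM in replicates 1, 2 and 3 at 4.5DDC and to 32.4, 103.9 and 121.4 FPKM at 6.5DDC. Of the 9 tested, 1 rose with time, Twist1, by 0.74 (standard error 0.19, edgeR adjusted p = 0.0276). That call was lost under 8 of 20 alternatives, with adjusted p up to 0.0792 without replicate 2 of 6.5DDC. With a replicate block 5 of the 9 rose, as did 3 of 7 neuron markers and 3 of 6 endoderm markers. With the replicate number 4 of the mesenchyme markers differed, and the most abundant was Dcn, with Prrx1 under 1 FPKM in every library. The count of mesenchyme markers that rose was 3 without replicate 1 of 6.5DDC, 2 without replicate 1 of 5.5DDC and 0 without replicate 1 or 2 of 4.5DDC, replicate 2 of 5.5DDC or replicate 2 of 6.5DDC. Without replicate 1 of all times, an alternative chosen after seeing the data, more markers of other cell types passed. There 8 of 8 floor plate markers rose, 7 of 8 of radial glia and astrocytes, 5 of 9 of mesenchyme and 4 of 7 of neurons, while in the oligodendrocyte lineage 1 rose and 2 fell and in the endoderm list 1 rose and 1 fell.

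Of the 4 tested markers of choroid plexus 0 were called by edgeR or DESeq2, and 0 had an unadjusted p under 0.05 by either. Without replicate 1 of 5.5DDC or replicate 3 of 6.5DDC 1 marker of this list rose. Markers of the choroid plexus, a tissue known for Enpp2, summed to 51.7, 17.0 and 19.3 FPKM at 4.5DDC in replicates 1, 2 and 3 and to 75.5, 19.9 and 15.2 FPKM at 6.5DDC. Nearly all of that was Folr1, and 7 of the 10, among them Kl, Aqp1, Kcne2 and Otx2, were under 1 FPKM in every library. Ttr, its defining marker, was at 0.177 ± 0.0817 FPKM at 4.5DDC and 0.948 ± 1.21 FPKM at 6.5DDC (SD, n = 3). At 6.5DDC replicate 1 had 2.34 FPKM and the others 0.268 and 0.233 FPKM, while Enpp2 was at 239 ± 30.0 FPKM. Which cells held the Enpp2 RNA was not tested.

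The 6 tested oligodendrocyte lineage markers, 6 endoderm markers and 2 pluripotent cell markers had 0 calls by edgeR, with 3, 0 and 0 at an unadjusted p under 0.05, and DESeq2 called 2, 0 and 0. The oligodendrocyte list summed to 18.9, 25.96 and 16.3 FPKM at 4.5DDC and 17.2, 17.4 and 22.2 FPKM at 6.5DDC, with Mbp the most abundant and Sox10 and Mog under 1 FPKM in every library. This sum covers opposite moves that did not pass the test, with log2 fold changes of −2.89 for Olig2, −4.57 for Olig1 and 1.26 for Pdgfra (edgeR adjusted p = 0.115, 0.0714 and 0.0588). Pdgfra was picked after its values were seen, as were Olig1 and Olig2. Without replicate 1 of 4.5DDC or replicate 1 of 5.5DDC 1 marker of the list fell. The endoderm list summed to 56.5, 31.4 and 35.0 FPKM at 4.5DDC and 71.1, 43.2 and 40.2 FPKM at 6.5DDC, most of it Foxa1, which floor plate also expresses. It was higher at 6.5DDC in each replicate number, with a list median of 0.92, and without replicate 1 of 4.5DDC 1 marker rose. Pluripotent cell markers summed to at most 6.495 FPKM in any library, with Klf4 the most abundant and Pou5f1 and Nanog under 1 FPKM in every library.

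**Figure D5:**
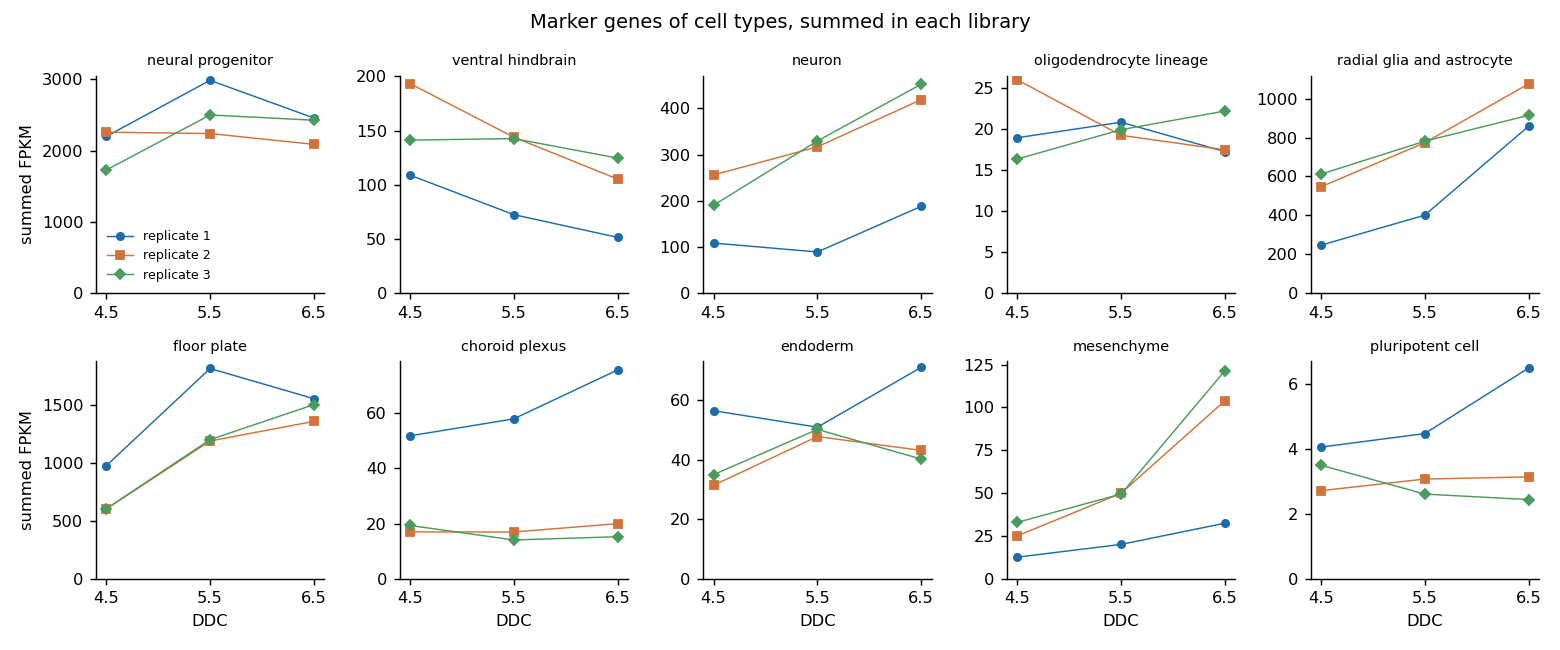
Summed FPKM of each marker list in each library by time in DDC, with 1 line per replicate number. Radial glia and astrocyte markers go up in every replicate, from 246.6 to 858.2 FPKM in replicate 1, while neuron and mesenchyme markers are lowest in replicate 1 at each time.

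The genes with the profiles most like each of the 5 were found by the root mean square (RMS) difference of log2 CPM, each gene centred on its own mean over the 9 libraries, among 11997 other genes. They were picked for likeness, so no test is given. Nearest to Nell1 was Kcnmb2, a potassium channel subunit gene, at an RMS difference of 0.197 against a median of 1.39 over all those genes, followed by Bace2 at 0.343 and Dpp6 at 0.364. Kcnmb2 had steps of 2.03 and 1.47 and reached 7.79 ± 0.310 FPKM (SD, n = 3) at 6.5DDC. Nearest to Enpp2 were Gm11992 at 0.197, Fam46a at 0.244 and Gcnt2 itself at 0.253, the closest pair among the 5 genes.

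Gcnt2 had the nearest neighbour of all, Nrp2, a receptor gene for semaphorins, at 0.114, with Lphn3 at 0.163 and Rnf182 at 0.186. Nrp2 went from 21.4 ± 0.360 to 108.5 ± 8.37 FPKM (SD, n = 3). Nearest to Pam was Qpct, whose product forms pyroglutamate at the other end of peptides, at 0.157, then Gpr137c at 0.178 and Aph1b at 0.189. Qpct was far lower than Pam, with 4.48 ± 0.984 FPKM at 6.5DDC. Ffar4 had the most distant neighbours, Cntn1 at 0.317, Rnf182 at 0.350 and Zcchc12 at 0.381. Its libraries held only 7 to 19 reads at 4.5DDC and 5.5DDC, and counting error enters these distances. The pair of the 5 genes least alike was Nell1 and Pam, at 0.687.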

How the data were processed

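The data are 9 RNA libraries of cells sorted for Prominin-1. The authors mapped reads to GRCm38 with TopHat 2.0.4 and deposited counts per gene from HTSeq 0.6.1. For 98 symbols the deposited counts were not whole, like expected counts or estimated counts, and were rounded. The authors computed FPKM with Cufflinks 2.1.1, used here as levels. The deposited log2 values from limma voom were only compared with the counts. Genes were filtered by filterByExpr and scaled by TMM, and quasi-likelihood F tests were run in edgeR 4.0.16 (R 4.3.3) with Benjamini-Hochberg adjustment at 0.05, for 6.5DDC against 4.5DDC in a model of time with 9 libraries and for the replicate number in a model of time and replicate. The fits were tested on simulated data, with 200 changed genes each. From 4.5DDC to 6.5DDC, 47.5% of changes of 1 on the log2 scale were recovered and 96.5% of changes of 2, with 4 and 16 false calls. For the replicate number these were 49.5% and 95%, with 7 and 21 false calls. The simulated time data held no replicate effect, and their dispersion came from a model with the replicate number. The share recovered in the libraries themselves may thus be lower. A gene that did not pass may still have changed by 1 or by more, as Olig1 did not pass at −4.57. DESeq2 1.42.0 and limma 3.58.1 served as alternatives, beside other scalings, filters and left-out libraries. Log2 CPM used a prior count of 2, and 3 reads were taken as the floor of detection, for counting error only. Tables used Python 3.11.15 and pandas 2.3.3. The genes named are the 5 members, the 3 genes nearest to each in profile, the called genes (at most 6) and the most abundant gene (mean over times) of each pathway list, and the most abundant and defining genes of each marker list, with others where stated; 1 marker gene is not reported here. The members and lists were chosen with earlier results of these data known.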

Additional observations from a re-analysis of the deposited data

How the results depend on the processing

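Enpp2, Gcnt2 and Pam kept their rise within the spread between replicate numbers under all 20 alternatives, from 2.41 to 2.69, from 2.18 to 2.52 and from 1.68 to 1.92 on the log2 scale. Nell1 did so under 19, with 2.47 under limma on log2(FPKM + 1), and Ffar4 under 15. The SD of the rise over replicate numbers was 0.084 for Ffar4, 0.26 for Pam, 0.30 for Gcnt2, 0.35 for Nell1 and 0.53 for Enpp2. A smaller shift thus took Ffar4 outside its spread than any of the others, so these counts do not compare their stability. Ffar4 rose by 1.43 under limma on log2(FPKM + 1) and by 2.55 with 0.1 added, where the added amount itself shrinks a low gene's ratio, and by 2.67 to 2.96 when each library was left out. From 4.5DDC to 6.5DDC 2763 genes changed, and leaving out libraries gave 1125 (without replicate 2 of 6.5DDC) to 4586 genes (without all of replicate 1, chosen after seeing the data). By the replicate number 798 genes differed, against 1255 under DESeq2, 1273 with no filter on low counts, 276 and 224 under limma on log2(FPKM + 0.1) and log2(FPKM + 1), and 206 to 1248 when each library was left out. The cause was not tested. With a replicate block 3418 genes changed, and more markers rose than in the fit without it. These were 6 of 8 for floor plate, 6 of 7 for radial glia and astrocytes, 5 of 9 for mesenchyme and 3 of 7 for neurons. For endoderm 3 of 6 rose, and for the oligodendrocyte lineage 1 of 6 rose and 2 fell. In the list of NELL and Robo partners 6 of 10 rose and 1 fell. For peptide processing and granules 5 of 19 rose, and in the autotaxin list 3 of 15 rose and 1 fell. Deviations of same-numbered libraries correlated at 0.743, 0.386 and 0.452 between 4.5DDC and 5.5DDC and at 0.454, 0.367 and 0.197 between 5.5DDC and 6.5DDC, but between 4.5DDC and 6.5DDC, the times compared, at 0.383, −0.0396 and −0.215, and not every library correlated best with its own number, so the number was not taken to pair them. Of 34 called genes in the lists, 12 kept their call under all 20 alternatives and 22 lost it under at least 1. None of the 34 changed direction. Counts of 7 to 80 reads limit the precision of Ffar4.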
